A study of Rattus norvegicus with 12 samples.

Results

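Bcl6, Onecut1, Socs2, Igf1, Ghr, Igfals and Stat5b were examined in the livers of rats fed the edible brown seaweed wakame, as a set of 7 genes tied to the action of growth hormone on the liver. They were taken as all probe sets whose only gene symbol in the platform annotation is one of these 7. A probe set is a group of short array probes aimed at one transcript. The rule gave 11 of the 31042 probe sets that are not manufacturer controls, and 10 of the 11, for 6 genes, varied over the arrays. The one probe set of Stat5b was flat, at 6.88 log2 on every array (standard deviation, SD, 2.29e-09), and counts as unmeasured. The 7 genes were chosen by their levels in the 1% wakame and control livers, so their differences between these diets are given as a description, and the counts of probe sets past a threshold in that comparison stand only beside the share of all probe sets.

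The animals were male Sprague Dawley rats, 9 weeks old when the liver was taken, with no genetic change named in the labels. Their feed over 28 days was a purified control diet, or that diet plus wakame powder at 0.1% or at 1%, and 4 livers per diet were each measured on their own Affymetrix rat array. Per the series' design text, 6 rats per diet were kept 3 per cage, and effects of diet and of cage cannot be told apart. Values are the deposited levels, read as log2 from their range, so a difference of 1 is taken as a doubling. Levels of different probe sets are not compared with each other.

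Growth hormone from the pituitary binds its receptor on hepatocytes, the kinase JAK2 is activated there, and the transcription factor STAT5B then enters the nucleus. STAT5B drives the gene for IGF-1, the circulating growth factor, and that for ALS (Igfals), which keeps IGF-1 in the blood, and it also drives Socs2, an inhibitor that turns the signal down. In rodent liver growth hormone is known to raise Onecut1, which encodes the hepatocyte factor HNF6, and to lower Bcl6, a repressor that can occupy the same kind of DNA site as STAT5. The hormone is released in pulses in male rats and more evenly in females, and this pattern sets many sex differences in liver enzymes.

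Promoter sequences are given for 3 genes because the pathway acts through short DNA sites. They come from RefSeq, build GRCr8, and cover the 250 bases before the start site, 5′ to 3′. Capitals mark TTCNNNGAA, the STAT5 type of site (it reads the same on both strands), and ATTGAT or its reverse complement ATCAAT, the core bound by HNF6, and no 2 matches overlapped. The promoter of Bcl6, the gene with the largest difference between diets, lies at chr11:90358503-90358752 (+ strand), that of Ghr, the receptor gene, at chr2:54432076-54432325 (- strand), and that of Cish, another STAT5-driven inhibitor and no member of the set, at chr8:116850719-116850968 (+ strand).
Bcl6: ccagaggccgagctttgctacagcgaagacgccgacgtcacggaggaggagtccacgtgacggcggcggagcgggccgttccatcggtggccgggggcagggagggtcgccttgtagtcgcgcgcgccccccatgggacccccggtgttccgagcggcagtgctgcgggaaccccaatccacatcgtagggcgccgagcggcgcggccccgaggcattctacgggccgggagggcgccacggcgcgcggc
Ghr: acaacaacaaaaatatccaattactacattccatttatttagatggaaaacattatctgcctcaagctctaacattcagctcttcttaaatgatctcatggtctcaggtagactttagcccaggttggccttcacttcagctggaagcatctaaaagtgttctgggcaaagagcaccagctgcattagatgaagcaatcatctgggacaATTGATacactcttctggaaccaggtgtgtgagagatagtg
Cish: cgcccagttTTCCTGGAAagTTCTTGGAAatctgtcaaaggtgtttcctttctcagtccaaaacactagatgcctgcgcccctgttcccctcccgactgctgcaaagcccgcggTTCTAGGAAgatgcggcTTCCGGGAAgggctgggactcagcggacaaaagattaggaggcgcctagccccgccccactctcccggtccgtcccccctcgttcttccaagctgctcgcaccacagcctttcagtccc
The window of Bcl6 held neither motif and that of Ghr held 1 ATTGAT, 41 to 36 bases before the start. The window of Cish held 4 TTCNNNGAA matches. Among 33469 promoter windows of the same length, 7.67% held at least 1 TTCNNNGAA, 0.00598% (2 windows) held at least 4, and 7.10% held ATTGAT or ATCAAT. The windows of Igf1, Igfals and Stat5b held neither motif. A match describes the letters and is not a measured binding site. Onecut1 and Socs2 had no entry in the promoter table.

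Of all 31042 probe sets, 27802 had an SD of at most 0.01 and 3240 varied. Tests were fitted to these 3240 with limma. Over these, the correlation between livers of the same diet was 0.911 to 0.962. Among the members the least variable probe set above the limit was one of Igf1 (SD 0.0882). For Gapdh, the 3-prime level minus the 5-prime level, a sign of RNA integrity, averaged 1.05 ± 0.01 log2 in control, 1.08 ± 0.10 in 0.1% wakame and 1.21 ± 0.16 in 1% wakame (SD, n = 4 each). The mean was highest in 1% wakame, and single livers overlapped between diets, at 1.04 to 1.42 in 1% wakame and 1.04 to 1.07 in control. The part of this difference in the results was not tested beyond a fit that includes it, given below.

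The liver of rat 2 on 0.1% wakame held the lowest or highest level of the 12 in most listed genes whose sex difference depends on growth hormone. In some of them it stood far apart from the other 11. The feature was singled out after the values were seen. This liver was the lowest of the 12 in 11 of 15 varying probe sets of male-biased genes. It was the highest in 6 of 8 of female-biased genes, with the members of the set left out. Counted by gene, at least 1 probe set was so in 9 of 11 male-biased and 4 of 6 female-biased genes. All probe sets of Prlr are among the 6. Some margins were small, as for Mup5 on 1388031_x_at, at 10.55 against 10.58 to 10.75 in the others. Cyp3a18, a male-biased cytochrome P450, was at 7.08 in this liver and at 11.25 to 12.94 in the others. Obp3, the male-specific alpha-2u globulin, was at 11.01 against 12.15 to 13.55 on 1387985_a_at. The female-biased prolactin receptor gene Prlr was at 11.48 against 6.04 to 9.54, and the female-biased A1bg was at 9.36 against 5.78 to 6.71. Cyp2c11, the main male P450, was at 12.90 against 13.41 to 13.75, again the lowest of the 12. Not all listed genes did so. The male-biased Slco1a1 was at 10.29, inside the 9.76 to 10.46 of the others. Among female-biased genes, Cyp2c12 was at 13.06 (others 8.57 to 13.25) and Cyp3a9 at 9.99 (7.79 to 10.89). Control rat 1 went the same way as rat 2 in some of the genes, as given below. The Y-linked Eif2s3y was at 8.50, inside the 8.42 to 8.82 of the other livers. The differences of the members and the named 0.1% differences of other genes are therefore also given without this liver.

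**Figure D1:**
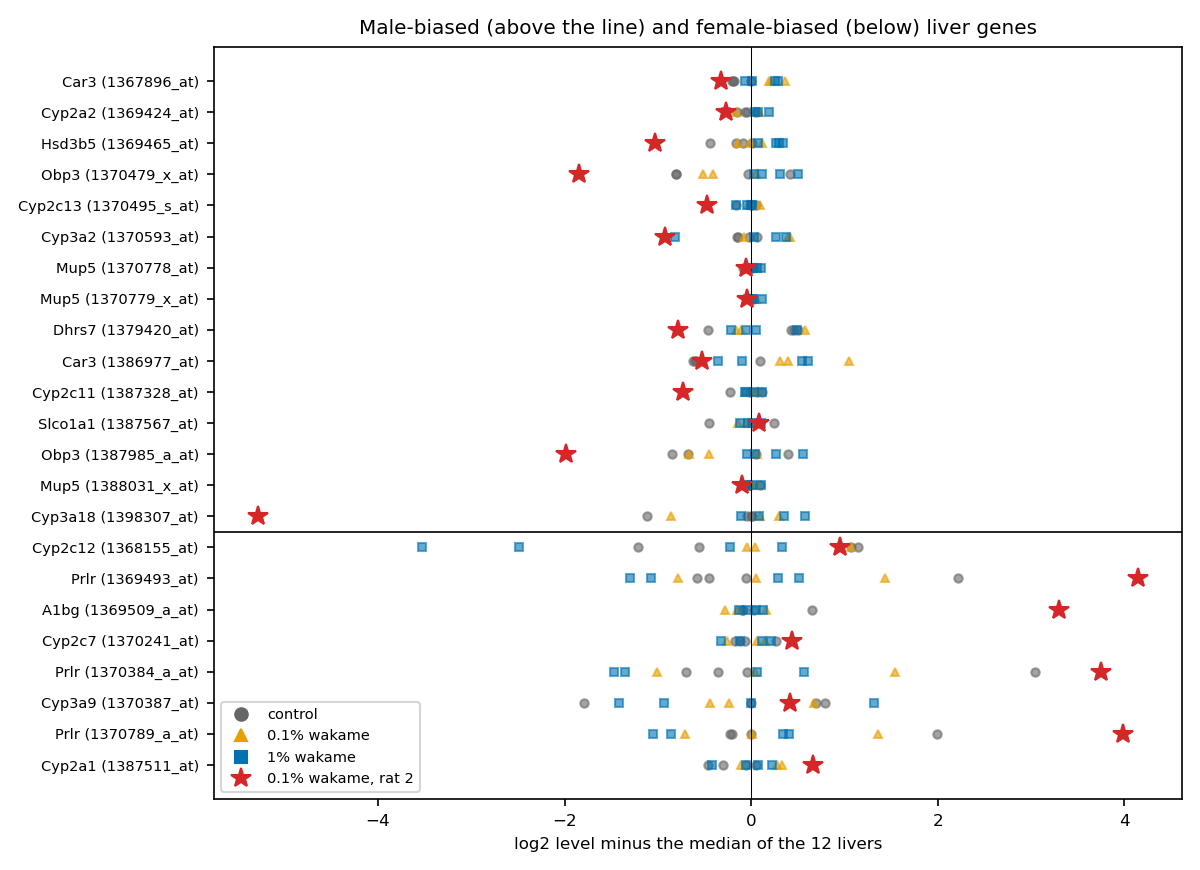
Log2 level of each liver minus the median of the 12 livers (x axis) for the varying probe sets of male-biased genes (above the line) and female-biased genes (below it), 1 row per probe set and 1 point per liver. The liver of rat 2 on 0.1% wakame (star) is the lowest in 11 of 15 male-biased rows and the highest in 6 of 8 female-biased rows.

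Bcl6 showed the widest range of the set. Its levels were 6.34, 6.72, 5.57 and 6.26 log2 in control livers, 7.11, 7.06, 10.18 and 10.13 in 0.1% wakame livers, and 10.22, 12.02, 12.12 and 11.38 in 1% wakame livers. The control livers were all low, the 1% livers were all high, and the 0.1% livers fell into a low pair (rats 1 and 2) and a high pair (rats 3 and 4), with no overlap between any 2 diets. The gap between the highest 0.1% liver and the lowest 1% liver was small beside the spread within either diet. The mean was 11.44 ± 0.88 with 1% wakame and 6.22 ± 0.48 in control (SD, n = 4 each), a difference of 5.21 ± 0.77 (SE), or 37.1-fold. In control, 3 values were lower than 6.59, the median over the arrays, and no background signal was used here to tell a low level from none.

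The 0.1% diet had a mean Bcl6 of 8.62 ± 1.77, against 6.22 ± 0.48 in control, a difference of 2.40 ± 0.77 (limma, adjusted p = 0.240), and it did not pass although all 4 livers lay above all 4 controls. Without rat 2 the difference was 2.92. The 1% diet lay 2.82 ± 0.77 above the 0.1% diet (adjusted p = 0.514), and 2.30 above it without rat 2. Both comparisons share arrays with the one known when the members were chosen.

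Onecut1 ran the other way on both of its probe sets. On 1371034_at the levels were 10.97, 11.07, 10.91 and 12.23 in control livers, 9.82, 10.53, 8.63 and 9.18 in 0.1% wakame livers, and 9.48, 7.66, 7.23 and 8.15 in 1% wakame livers. Every wakame liver lay below every control, and rat 1 on 1% wakame lay among the 0.1% livers. The 1% diet averaged 8.13 ± 0.97, against 11.30 ± 0.63 in control, a difference of −3.17 ± 0.54. The second probe set, 1387760_a_at, gave 6.66 ± 0.58 with 1% wakame and 8.76 ± 0.47 in control, a difference of −2.10 ± 0.35. In 1% wakame 3 of its 4 values, 6.38, 6.22 and 6.54, were also lower than that median.

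For Onecut1 the 0.1% diet differed from control by −1.75 ± 0.54 on 1371034_at (limma, adjusted p = 0.231) and by −1.29 ± 0.35 on 1387760_a_at (adjusted p = 0.196), with no overlap on either and no pass. Without rat 2 these were −2.09 and −1.52. The 1% diet differed from the 0.1% diet by −1.41 ± 0.54 (adjusted p = 0.647) and −0.81 ± 0.35 (adjusted p = 0.697), and these diets overlapped. Without rat 2 these were −1.08 and −0.58. Control rat 4 held the highest value of all 12 livers on both probe sets, and without it the difference of the 1% diet from control was −2.85 on 1371034_at and −1.87 on 1387760_a_at.

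**Figure D2:**
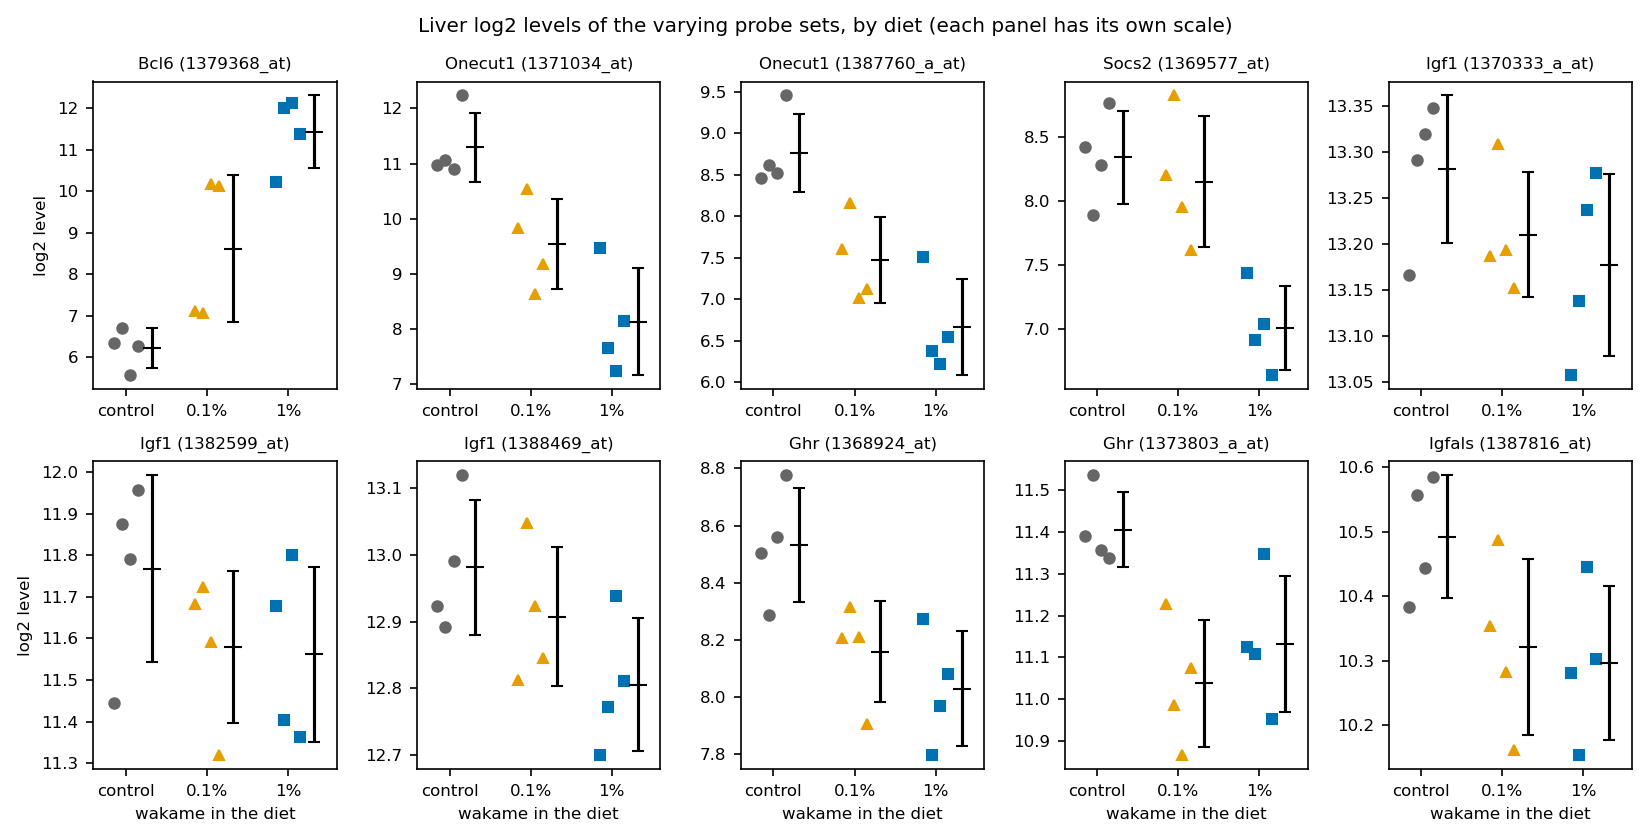
Log2 level of each varying probe set in each liver (points, in the order of the rat numbers) for the control, 0.1% and 1% wakame diets, with the mean and SD of the 4 livers beside them. Bcl6 lies at 10.22 to 12.12 with 1% wakame, Onecut1 and Socs2 lie lower there, and the panels of Igf1 and Igfals span well under 1 log2 in all.

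Ghr, the gene for the growth hormone receptor, was lower by a modest amount with both wakame diets. On 1373803_a_at the levels were 11.39, 11.54, 11.36 and 11.34 in control, 11.23, 10.99, 10.87 and 11.07 in 0.1% wakame, and 11.13, 11.11, 11.35 and 10.95 in 1% wakame. All 0.1% livers lay below all controls, and one 1% liver lay among the controls. The difference was −0.27 ± 0.10 for 1% wakame against control and −0.37 ± 0.10 for 0.1% wakame against control (limma, adjusted p = 0.196 for 0.1% wakame, not passing), and −0.35 for 0.1% wakame without rat 2.

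On the other Ghr probe set, 1368924_at, the levels were 8.50, 8.29, 8.56 and 8.78 in control, 8.21, 8.31, 8.21 and 7.91 in 0.1% wakame, and 8.27, 7.80, 7.97 and 8.08 in 1% wakame. Here the 1% livers all lay below the controls and the 0.1% diet overlapped them. The differences from control were −0.50 ± 0.13 for 1% wakame and −0.37 ± 0.13 for 0.1% wakame (adjusted p = 0.323 for 0.1% wakame), and −0.42 for 0.1% wakame without rat 2. Within diets the 2 probe sets did not track each other (Pearson r = −0.35 over the 12 arrays after each diet's mean was taken off).

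Socs2, the feedback inhibitor, was lowest in the 1% diet. Its levels were 8.42, 7.89, 8.28 and 8.76 in control, 8.21, 8.82, 7.95 and 7.62 in 0.1% wakame, and 7.44, 6.92, 7.04 and 6.64 in 1% wakame. Every 1% liver lay below every other liver, while of the 0.1% livers 1 lay above the range of the controls, 1 lay below it and the other two lay inside. The 1% diet averaged 7.01 ± 0.33, against 8.34 ± 0.36 in control, a difference of −1.33 ± 0.27, or 2.51-fold lower. The 0.1% diet differed from control by −0.19 ± 0.27 (limma, adjusted p = 0.844), and which liver was left out set its size. It was −0.41 without rat 2, which had the highest Socs2 of all 12 livers, −0.01 without rat 4 on 0.1% wakame and −0.05 without control rat 4. The 1% diet differed from the 0.1% diet by −1.14 ± 0.27 (adjusted p = 0.420), which did not pass, and by −0.92 without rat 2.

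Igf1 and Igfals, the products that carry the hormone's growth signal in blood, differed little. On 1370333_a_at Igf1 averaged 13.18 ± 0.10 in 1% wakame and 13.28 ± 0.08 in control (SD, n = 4 each). On 1382599_at it averaged 11.56 ± 0.21 in 1% wakame and 11.77 ± 0.23 in control, and on 1388469_at 12.81 ± 0.10 in 1% wakame and 12.98 ± 0.10 in control. The differences of the 1% diet from control were −0.10 ± 0.06, −0.21 ± 0.14 and −0.18 ± 0.07, and the diets overlapped on all 3 probe sets. For 0.1% wakame against control they were −0.07 ± 0.06, −0.19 ± 0.14 and −0.07 ± 0.07 (adjusted p from 0.680 to 0.762), and without rat 2 they were −0.10, −0.24 and −0.12. Igfals was at 10.38, 10.56, 10.44 and 10.59 in control, 10.35, 10.49, 10.28 and 10.16 in 0.1% wakame, and 10.28, 10.15, 10.45 and 10.30 in 1% wakame, with overlap throughout. Its difference from control was −0.20 ± 0.09 for 1% wakame and −0.17 ± 0.09 for 0.1% wakame (adjusted p = 0.500 for 0.1% wakame), and −0.23 for 0.1% wakame without rat 2. In bulk liver, a smaller share of cells of one type and less RNA per cell cannot be told apart.

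**Figure D3:**
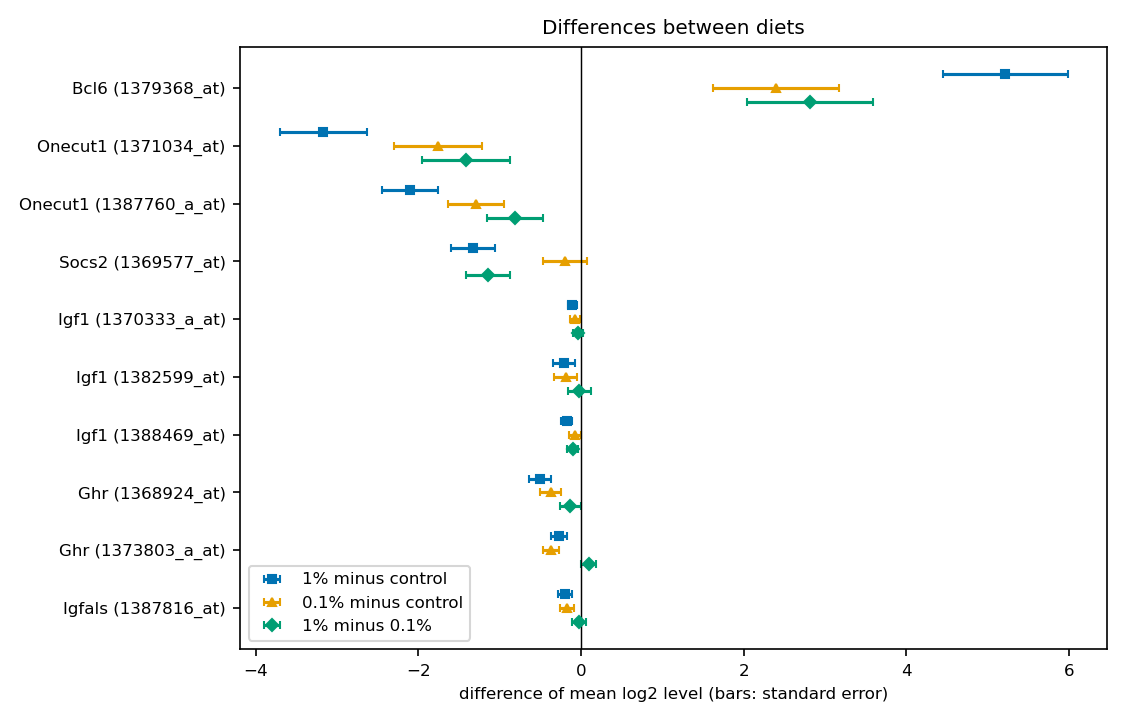
Difference of mean log2 level (x axis) between diets for each varying probe set, with the standard error as bars, for 1% minus control, 0.1% minus control and 1% minus 0.1%. Bcl6 is the only row above zero for 1% minus control, at 5.21, and the rows of Igf1 and Igfals lie within 0.21 of zero for both wakame diets against control.

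Between 1% wakame and control, 4 of the 10 varying member probe sets passed (limma, adjusted p under 0.05), where 1.67% of all 3240 did. They were that of Bcl6, higher, and both of Onecut1 and that of Socs2, lower. Of the 10, 8 had an unadjusted p under 0.05 (18.5% of all), and in 5 the groups did not overlap (11.3% of all). Nothing is read from these counts since this comparison was known when the members were chosen. The count was 0 with the Gapdh 3-prime minus 5-prime difference in the fit, although the difference of Bcl6 was 5.57 there. It was 0 to 4 with single arrays left out, at 0 without control 4 or 1% wakame 2 and at 1 without control 1, control 2 or 1% wakame 4. Over these 12 fits Bcl6 passed 10 times, each Onecut1 probe set 7 times and Socs2 only 3 times. Between 0.1% wakame and control 0 of 10 passed, where 0.0617% of all passed (limma, 2 probe sets), and 5 had an unadjusted p under 0.05, where 11.5% of all did. The groups did not overlap in 4 of the 10, those of Bcl6, Onecut1 and one of Ghr, where 5.86% of all did not. This comparison shares the control arrays, and the members were chosen with earlier results of these data known. Nothing is read from its counts either. Between 1% and 0.1% wakame 0 of 10 passed, where 0.0% of all passed, 4 had an unadjusted p under 0.05 (6.76% of all) and 2 did not overlap (3.77% of all), namely Bcl6 and Socs2. The median difference over the members was −0.24 for 1% wakame against control and −0.19 for 0.1% wakame against control, beside −0.02 and −0.02 over all varying probe sets.

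Some of the members also moved together between livers of the same diet, and others did not. Of the 45 pairs of varying member probe sets, 14 had a within-diet r of 0.6 or more in size and 14 had one under 0.2. The first 14 include pairs from the same gene, those of Onecut1 (r = 0.98) and of Igf1 (1370333_a_at with 1388469_at, r = 0.75). Pairs with either Onecut1 probe set are counted apart. The share over pairs of all varying probe sets was not taken, so nothing is read from these counts. After each diet's mean was taken off, Bcl6 and Onecut1 (1371034_at) had a Pearson r of −0.73 and a Spearman rho of −0.80 over the 12 arrays, and r was −0.55 without the 2 arrays farthest from the median of Onecut1. Socs2 had an r of 0.71 with Onecut1 and −0.68 with Bcl6 (0.65 and −0.45 when the 2 arrays farthest out in Socs2 were left out). The Ghr probe set 1368924_at had an r of 0.77 with Socs2, and Igfals had an r of 0.83 with Igf1 on 1382599_at. Igf1 on 1388469_at had an r of 0.00 with Bcl6. On 1370333_a_at it had an r of −0.12 with Bcl6, 0.03 with Onecut1 and 0.09 with Socs2. Ghr on 1373803_a_at had an r of −0.12 with Bcl6, −0.11 with Onecut1 and −0.04 with Socs2. These are descriptions over arrays that share one hybridisation for both genes of a pair, and no test was made. In the 0.1% diet the 2 livers with high Bcl6 were those with the lowest Onecut1 and Socs2, and in the 1% diet rat 1 had the lowest Bcl6 with the highest Onecut1, Socs2 and Ghr (1368924_at). In control, rat 4 had the highest Onecut1, Socs2, Ghr (1368924_at), Igf1 and Igfals.

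**Figure D4:**
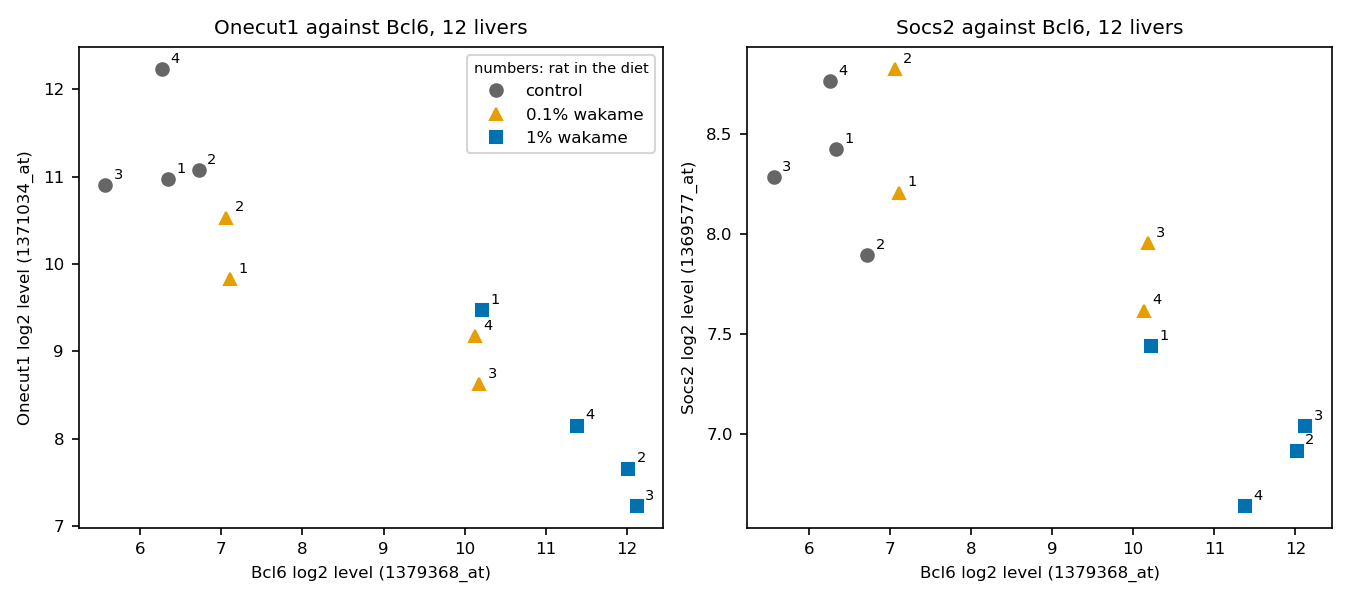
Onecut1 (left) and Socs2 (right) log2 level against Bcl6 log2 level, 1 point per liver with the rat number, for control, 0.1% wakame and 1% wakame. Rats 3 and 4 on 0.1% wakame lie beside rat 1 on 1% wakame in the left panel, and rats 1 and 2 on 0.1% wakame lie nearer the controls.

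Other genes were ranked by their Pearson r with members within diets, over the 12 arrays after each diet's mean was taken off. The genes given are the extremes of a ranking of many probe sets over few arrays. Large r arise there without any link, and no test was made. For Bcl6 the highest r were those of Atp6v0e1, a proton pump subunit (0.89), Bdh1, the ketone body enzyme (0.84), Pfdn4 (0.82), Nt5c3a (0.81) and Cyp3a2, a male-biased P450 (0.81). The lowest were LOC102549203 (−0.94), the stress factor Atf4 (−0.89), Akr1c14 (−0.87), Atxn1l (−0.84) and Kmt2e (−0.83). For Onecut1 the highest were Ubr3 (0.91), Atrn (0.89), LOC102549203 (0.81), Zfhx3 (0.81) and Washc3 (0.81), and the lowest Dynll2 (−0.84), Mif (−0.83), Chchd10 (−0.83), Rnf8 (−0.83) and Ccdc167 (−0.80). For Socs2 the highest were Acss3 (0.93), Serpina10 (0.90), Albfm1 (0.87), Fam149a (0.84) and Gne (0.82), and the lowest Rnf181 (−0.88), Rab2b (−0.88), Chchd10 (−0.88), Vamp8 (−0.87) and Rnf208 (−0.86). When diet means were kept, 2 of the 5 lowest genes for Bcl6 were again among its 5 lowest, and 0 of the 5 were shared at its other end and at both ends for Onecut1 and Socs2.

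The rest of the pathway was measured thinly. Of 16 genes for the hormone's receptor and signal on the array, 3 varied, and of 7 cytokine feedback inhibitors 2 did. Apart from the members these were Prlr and Egfr, with 0 of 5 probe sets passing in any comparison, and Cish, with 0 of 1. Cish, the inhibitor whose promoter is printed above, was at 7.58, 8.36, 7.87 and 6.89 in control, 6.39, 6.20, 7.82 and 6.19 in 0.1% wakame, and 8.87, 6.01, 6.02 and 6.81 in 1% wakame. One liver in each wakame diet was far above the rest of its diet, and of these the 1% liver, rat 1, also had the highest Socs2 of its diet, while the 0.1% liver, rat 3, did not. Its difference from control was −0.75 ± 0.63 for 1% wakame and −1.02 ± 0.63 for 0.1% wakame (limma, adjusted p = 0.568 and 0.596), and −0.87 for 0.1% wakame without rat 2.

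In the IGF axis, 4 of 12 genes on the array varied and 0 of 3 probe sets other than the members' passed in any comparison. Igfbp1, the insulin-repressed IGF binding protein, was at 6.45, 8.12, 9.71 and 7.89 in control, 10.99, 10.49, 10.03 and 11.51 in 0.1% wakame, and 9.56, 10.76, 8.58 and 8.41 in 1% wakame. All 0.1% livers lay above all controls, a difference of 2.71 ± 0.69 (adjusted p = 0.196) or 2.80 without rat 2, and the 1% diet overlapped both, at 1.28 ± 0.69 from control (adjusted p = 0.350). Igfbp3, the main carrier of IGF-1 in blood, was at 0.20 ± 0.14 and 0.38 ± 0.18 on its 2 probe sets for 1% wakame against control (adjusted p = 0.490 and 0.284).

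The sex-biased genes set by the hormone's pulses did not pass in any comparison. Of 15 varying probe sets of male-biased genes other than Bcl6, 0 passed and 12 lay higher with 1% wakame than in control, with a median difference of 0.06. Hsd3b5 was at 0.42 ± 0.22 (limma, adjusted p = 0.328). Obp3 was at 0.55 ± 0.39 on 1370479_x_at and 0.475 ± 0.410 on 1387985_a_at (limma, adjusted p = 0.491 and 0.573). Of 8 probe sets of female-biased genes other than Ghr, 0 passed and 7 lay lower, with a median of −0.43. Those of Prlr are among the 8, and control rat 1 was the highest control on each. On 1370789_a_at it was at 8.33, the other controls at 6.12 to 6.34 and the 1% livers at 5.29 to 6.74. The 1% median was not taken without this liver. Cyp2c12, known as a female P450, was at −1.59 ± 0.85 (limma, adjusted p = 0.348). Its probe set read 10.90 to 13.25 in these male control livers and 8.57 to 12.44 in 1% wakame. Whether it reads Cyp2c12 alone was not tested. For 0.1% wakame against control the median of the female-biased probe sets was 0.54 with all livers and −0.02 without rat 2, so its direction rests on that liver. The male-biased median was −0.01, and 0.05 without rat 2.

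Among 15 varying probe sets of hepatocyte transcription factors other than Onecut1, 1 passed between 1% wakame and control. Nr5a2, the nuclear receptor LRH-1, rose by 0.60 ± 0.13 on 1390965_at (limma, adjusted p = 0.0486). Its levels were 9.71, 9.40, 9.41 and 9.47 in 1% wakame, against 9.08, 8.87, 8.90 and 8.75 in control, without overlap. A second, flatter probe set of Nr5a2 was at 0.07 ± 0.07, and when each array was left out in turn the first passed 2 of 12 times. Onecut2, the closest relative of Onecut1, was at −0.10, −0.09 and −0.01 on its 3 probe sets for 1% wakame against control, with 0 passing (adjusted p from 0.514 to 0.946). Of 6 probe sets of genes reported as HNF6 targets, 0 passed; among them Tat was at −1.04 ± 0.48, Pfkfb1 at 0.94 ± 0.45, Pck1 at 0.57 ± 0.22 and Foxa2 at −0.48 ± 0.47 (adjusted p from 0.202 to 0.636).

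Partners and reported targets of Bcl6 did not pass either. The corepressor gene Ncor1 was at −0.45 ± 0.14 for 1% wakame against control and −0.46 ± 0.14 for 0.1% wakame against control (limma, adjusted p = 0.130 and 0.228), the second being −0.52 without rat 2. Foxo3, of a family that can activate Bcl6, was at 0.10 ± 0.10 (adjusted p = 0.654 for 1% wakame). Another list holds genes of fat oxidation, together with Plin2 and Vnn1, that BCL6 is reported to repress in mouse liver. Of its 8 varying probe sets, 0 passed, 4 lay higher and 4 lower with 1% wakame, with a median of −0.02. Cpt1a, of fatty acid entry into mitochondria, was at 0.64 ± 0.30 and 0.26 ± 0.27, Pdk4 at −0.71 ± 0.45, Ehhadh at −0.40 ± 0.23 and Plin2 at −0.24 ± 0.12 on 1390383_at and −0.13 ± 0.13 on 1382680_at (adjusted p from 0.290 to 0.657).

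Of 7 hepatocyte markers on the array 3 varied and 0 passed. For 1% wakame against control, Tat, which is also on the HNF6 list, was at −1.04 ± 0.48, the P450 gene Cyp2e1 at 0.67 ± 0.35 and Apoa1 at 0.05 ± 0.14 (limma, adjusted p = 0.280, 0.338 and 0.910). Alb, the albumin gene, was flat at 14.61 on every array. Bcl6 also marks germinal centre B cells and Onecut1 bile duct and pancreas cells. Of 6 lymphocyte markers on the array 1 varied, Ptprc, at −0.02 ± 0.18 for 1% wakame against control (limma, adjusted p = 0.965). Of 5 cholangiocyte markers 0 varied, and of 6 pancreas markers 1 varied, Cela1, at 0.28 ± 0.26 (adjusted p = 0.607). The 3 varying Kupffer cell markers, the 5 stellate cell markers and the 2 endothelial genes had 0 passing probe sets, with median differences of 0.04, 0.21 and 0.05. Flat markers carry no measured change, so shifts in these cells were not tested by them.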

How the data were processed

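Liver RNA of 12 rats was measured, 1 array per rat. Per the labels' protocols, 100 ng of total RNA was copied from the 3-prime end into biotin-labelled cRNA. The authors deposited 1 table of values, read here as log2 from their range; R 2.7.2 is listed in the submitters' processing notes, and how background correction, normalization and summarisation were done was not given in the sources used here. Precision is limited by the number of arrays. Those with an SD over 0.01 were fitted with limma 3.58.1 in R 4.3.3 (a mean per diet over all 12 arrays, variance trend, Benjamini-Hochberg over 3240 probe sets, threshold 0.05). Differences are in mean log2 with the fit's SE, 4 arrays per diet. On simulated data for 1% wakame against control, with 3240 probe sets, 78% of shifts of 1 log2 and 97% of shifts of 2 log2 were recovered. Of 185 calls 10 were false. The simulated noise was independent and normal, 100 probe sets were shifted at each size, and the shares are over probe sets of all spreads. They do not give the power for the members, and a member difference that did not pass is not shown to be absent.

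Symbols came from the platform annotation; all 11 member probe sets had the same symbol in the RefSeq table of GRCr8. The members, gene lists and tests were chosen with earlier results of these data known. Genes named are the members and list genes that passed, otherwise up to 4 other genes per list by size of the difference. Also named are 5 genes at each end of the likeness ranking. Onecut2, A1bg, Cyp2c11, Slco1a1, Alb and Eif2s3y were added after values were seen. Alternatives covered the probe sets tested, variance model, quantile normalization, dim probe sets, the diets in the fit, a replicate block, the Gapdh covariate and each array left out. Same-numbered arrays of different diets did not deviate together (r from −0.12 to 0.09). The labels name no pairing of rats by number, and this check cannot exclude one.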

Additional observations from a re-analysis of the deposited data

Results flagged for a closer look

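Among the member probe sets and part of the listed ones, 159 groups of 4 livers were screened for a liver far from the other 3 of its diet. In all, 12 groups had one. Not every listed probe set was in this screen. Chance flags about 1 group in 20. For the members, control rat 4 held Onecut1 at 12.23 on 1371034_at, with the other controls at 10.91 to 11.07, and at 9.46 on 1387760_a_at, with the others at 8.46 to 8.62. Rat 2 on 0.1% wakame held A1bg at 9.36 (others of its diet 5.78 to 6.21) and Ncor1 at 7.58 (7.31 to 7.34). Rat 3 on 0.1% wakame held Cish at 7.82 (6.19 to 6.39).

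Control rat 1 held A1bg at 6.71 (others 5.96 to 6.08), Prlr at 8.33 on 1370789_a_at (6.12 to 6.34), Dhrs7 at 8.11 (8.99 to 9.08) and Cyp3a18 at 11.25 (12.33 to 12.37). In these genes it deviated in the same direction as rat 2 on 0.1% wakame. Control rat 3 held Car3, carbonic anhydrase 3, at 13.54 on 1367896_at (13.35 to 13.36) and at 11.56 on 1386977_at (10.83 to 10.87). Control rat 4 held Mup5 at 10.74 on 1388031_x_at (10.62 to 10.63).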

How the results depend on the processing

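The count of member probe sets that passed between 1% wakame and control was 4, and it was 0 over all probe sets with flat ones included, 0 with the Gapdh covariate, 1 with the replicate number as a replicate block, and 0 to 4 with each array left out. The labels do not say that these numbers pair the rats. These counts come from the comparison known when the members were chosen and say nothing of stability. The single pass among other pathway genes, Nr5a2, became 0 over all probe sets, over those with SD over 0.1, with robust variances, with only the 2 diets compared, with the replicate block and with the Gapdh covariate, and 0 to 1 with each array left out. The causes were not tested. No member passed between 0.1% wakame and control or between 1% and 0.1% wakame under any alternative run (limma, lowest adjusted p = 0.156 and 0.226). All member differences from control kept their sign; for Bcl6 the 1% wakame difference ran from 4.98 to 5.62. Between 1% and 0.1% wakame, values near zero changed sign: Igf1 1370333_a_at was 0.0101 and Igfals 0.0201 with the Gapdh covariate, and Igf1 1382599_at was 0.0199 with quantile normalization. With each array left out, Igf1 1370333_a_at ran from −0.0662 to 0.0072, Igf1 1382599_at from −0.1047 to 0.0478 and Igfals from −0.0788 to 0.0295. Values near the arrays' median have no measured background, which limits the folds of Bcl6 and Onecut1.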
